A study of Mus musculus with 22 samples.

Results

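The genes described here are 10 co-stimulatory and co-inhibitory T cell genes, the immune checkpoint genes, in the distal colon of mice with spontaneous colitis. They were chosen by name from a count table of 46078 genes, with differences between the 3 groups in these same libraries already known, so their differences between groups are given as a description. All 10 symbols matched a row of the table: Ctla4, Icos, Cd28, Pdcd1, Cd274, Pdcd1lg2, Lag3, Tigit, Havcr2 and Cd86. RNA of whole distal colon was sequenced in 22 libraries of 3 groups. C57BL/6 mice of 14 weeks served as controls (n = 8, 4 males and 4 females). Winnie mice of 14 weeks (n = 7, 3 males and 4 females) carry a germline missense mutation in Muc2, the gene of the main goblet cell mucin, and develop colitis without treatment. Winnie-Prolapse mice (n = 7, 4 males and 3 females) are Winnie mice with prolapse, labelled as severely inflamed, and all were 18 weeks old, so that prolapse and age cannot be told apart in any comparison with them. The C57BL/6 and Winnie mice of 14 weeks came from 1 breeding colony, and the labels name no agent for any group. The study asks which pathways differ between healthy colon, colitis and the highly inflamed state.

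T cells need a signal from their antigen receptor and a further signal through co-receptors. CD28 binds CD80 and CD86 on antigen-presenting cells and promotes activation, while CTLA-4 binds the same ligands with higher affinity and restrains it. ICOS is an inducible relative of CD28, and PD-1 (Pdcd1) is an inhibitory receptor whose ligands are PD-L1 (Cd274) and PD-L2 (Pdcd1lg2). LAG-3, TIGIT and TIM-3 (Havcr2) are further inhibitory receptors of activated T cells, and TIM-3 is also made by myeloid cells. In the gut these receptors are known for their part in tolerance to the microbiota, and blocking CTLA-4 or PD-1 in the clinic can cause colitis.

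On GRCm38, with the GENCODE M21 annotation, the CD28 family receptors lie next to each other on the plus strand of chromosome 1: Cd28 at chr1:60716800-60773359, Ctla4 at chr1:60887000-60915832 and Icos at chr1:60977927-61000320. Pdcd1 lies elsewhere on that chromosome at chr1:94038305-94052553. The ligand genes Cd274 (chr19:29367455-29388095) and Pdcd1lg2 (chr19:29410919-29471161) are neighbours on chromosome 19, 22824 bases apart. Lag3 is at chr6:124904361-124911705, Tigit at chr16:43648867-43664146, Cd86 at chr16:36603869-36666081 and Havcr2 at chr11:46454935-46481255. All 10 are protein-coding genes in M21, and only Cd274 shares exon sequence with another gene, 511 bases with AC119228.1 on the opposite strand. RefSeq promoter windows were at hand for 6 of the 10. The 250 bases before the start are printed for Cd274 and Pdcd1lg2, the neighbouring ligand genes, and for Ctla4, which has the largest fold change. For Ctla4 the RefSeq start lies inside the M21 gene. Coordinates in the order printed are chr19:29367188-29367437, chr19:29410669-29410918 and chr1:60908775-60909024, all GRCm38.p6, plus strand, 5′ to 3′, with capitals marking motif matches on either strand.
Cd274: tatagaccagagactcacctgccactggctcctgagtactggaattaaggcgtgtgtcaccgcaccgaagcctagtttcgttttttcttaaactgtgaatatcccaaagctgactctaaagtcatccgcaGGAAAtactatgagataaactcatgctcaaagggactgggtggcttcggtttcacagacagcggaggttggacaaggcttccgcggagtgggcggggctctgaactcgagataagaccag
Pdcd1lg2: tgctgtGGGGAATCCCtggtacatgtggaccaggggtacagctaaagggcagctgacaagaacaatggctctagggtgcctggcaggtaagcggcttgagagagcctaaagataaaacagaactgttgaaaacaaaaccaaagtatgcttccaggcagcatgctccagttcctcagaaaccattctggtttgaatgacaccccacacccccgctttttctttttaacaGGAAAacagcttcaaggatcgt
Ctla4: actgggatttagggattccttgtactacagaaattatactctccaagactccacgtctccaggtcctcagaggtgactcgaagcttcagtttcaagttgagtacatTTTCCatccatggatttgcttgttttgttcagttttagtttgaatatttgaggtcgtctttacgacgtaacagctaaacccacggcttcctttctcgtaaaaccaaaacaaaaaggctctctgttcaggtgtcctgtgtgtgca
The motifs reported here were searched on both strands: the paired interferon regulatory factor site (GAAA, any 2 bases, GAAA), the NFAT core GGAAA and a kappaB form (GGGA, any 4 bases, CC). The NFAT core had 1 match in each of the 3 windows, at -120 to -116 in Cd274, -22 to -18 in Pdcd1lg2 and -144 to -140 in Ctla4, where -1 is the base before the start. It occurred in 55.6% of all 32851 promoter windows of this length, so a match is common. Pdcd1lg2 also had a kappaB match at -244 to -235, a motif found in 17.6% of windows. The paired interferon regulatory factor site, found in 2.98% of windows, was not among the letters of these 3 windows. A match is a description of letters and not a binding site.

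Total counts were 24817527 to 36344372 per library, so that 3 counts correspond to 0.0825 to 0.121 CPM, the count scaled to a library total of 1000000 counts. Several checkpoint genes lay near that floor in C57BL/6 colon: Ctla4 had 1 to 9 counts per library, Pdcd1 2 to 9, Pdcd1lg2 2 to 25 and Tigit 0 to 5. Where Tigit had 0 counts, in C57BL/6 replicate 3, the depth allows a level of up to 0.0952 CPM, and this covers counting error only. Some libraries stood apart from their group. In Winnie-Prolapse replicate 6, 18.98% of counts were in milk protein genes, against at most 0.00594% elsewhere. C57BL/6 replicate 5 had the highest level of its group for 6 of the 10 genes and C57BL/6 replicate 7 the lowest for 7, while Winnie replicate 5 was the lowest Winnie library for 7. The summed level of 8 B cell genes was 307.7 CPM in C57BL/6 replicate 5 and 5.47 CPM in replicate 7, so these libraries differed in lymphoid transcripts too. Nothing in the labels says whether replicates came from separate litters or cages, so errors measure the spread between these mice.

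All 10 checkpoint genes had higher mean levels in Winnie than in C57BL/6 colon, and higher again in Winnie-Prolapse. In the edgeR quasi-likelihood fit across all genes, a call needed a change of 1.5-fold or more with a p below 0.001 after Benjamini-Hochberg adjustment. Of the 10 genes, 8 passed the filter on low counts for Winnie against C57BL/6 and 1 was called, Ctla4. Limma-voom called 0, DESeq2 6 and edgeR with all 3 groups in 1 fit 4. Of all genes tested, 0.0868% were called higher there (15 of 17289). With the looser limit of an adjusted p under 0.05, 6 of the 8 were called higher, beside 7.42% of all genes. For Winnie-Prolapse against C57BL/6, 9 passed the filter and all 9 were called higher, beside 9.84% of all genes tested (1712 of 17397). The looser limit gave the same 9, beside 16.7% of all genes. Since the genes were selected on differences between these groups, nothing is read from these shares. In bulk tissue, more cells of a type and more RNA per cell cannot be told apart.

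**Figure D1:**
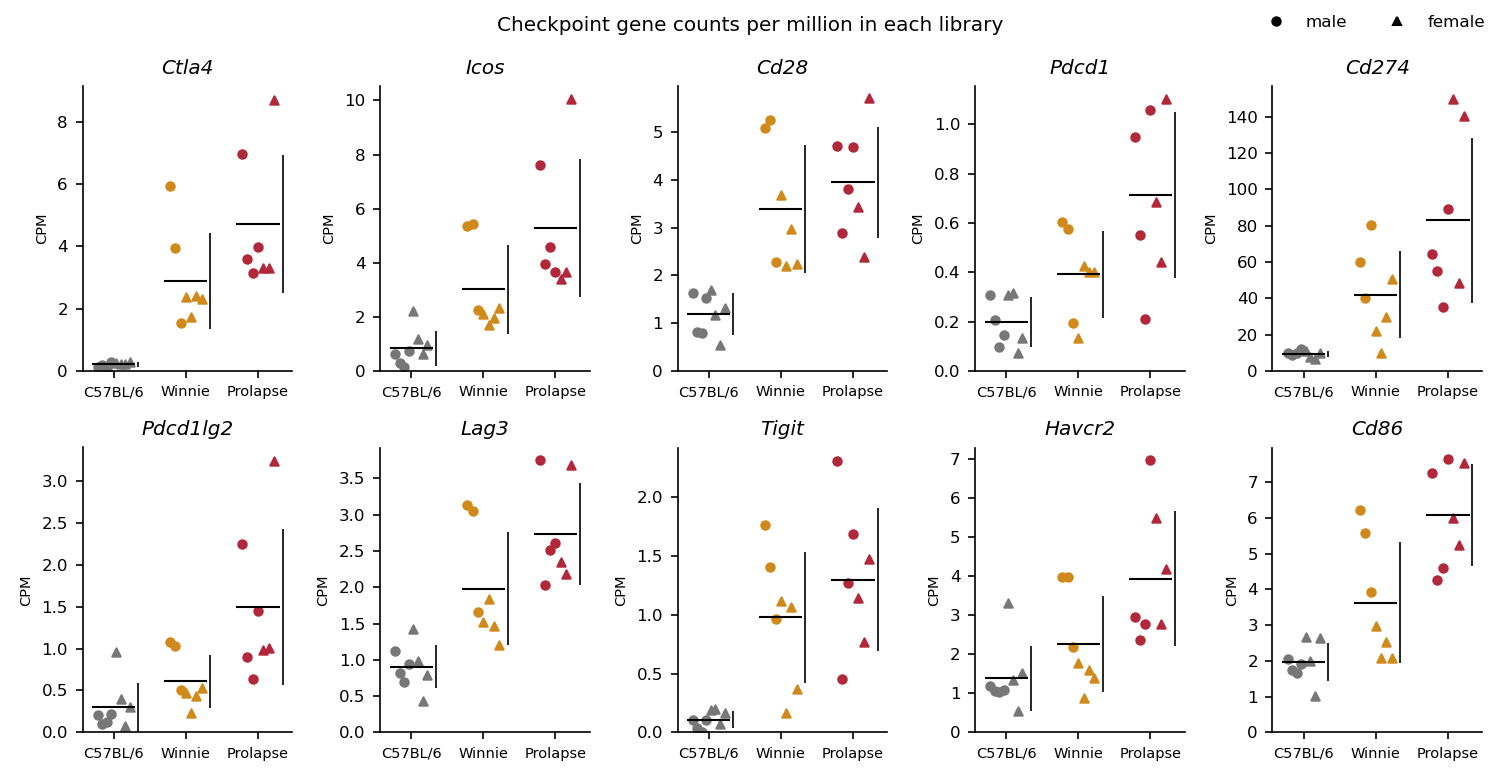
CPM of each checkpoint gene (vertical axis, from 0) in every library of the 3 groups; circles are males and triangles females, horizontal lines are group means and vertical lines ± 1 SD. Ctla4 and Cd28 show no overlap between C57BL/6 and Winnie, and Cd274 ranges from 9.98 to 80.4 CPM within the Winnie group.

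Among the CD28 family receptors, Ctla4 had the largest fold change in both comparisons with C57BL/6. Ctla4, the inhibitory receptor, was at 0.0317 to 0.298 CPM in C57BL/6 (median 0.227), 1.54 to 5.94 CPM in Winnie (median 2.36) and 3.15 to 8.72 CPM in Winnie-Prolapse (median 3.59). Every colitic library thus lay above every C57BL/6 library. The log2 fold change was 3.86 ± 0.37 (SE) in Winnie and 4.56 ± 0.36 in Winnie-Prolapse. Icos, the inducible co-stimulator, ranged from 0.127 to 2.20 CPM in C57BL/6 (median 0.669), 1.71 to 5.45 CPM in Winnie (median 2.24) and 3.40 to 10.04 CPM in Winnie-Prolapse (median 3.95). Only 4 of 7 Winnie libraries lay above all C57BL/6 libraries for Icos, against 7 of 7 Winnie-Prolapse libraries. Its log2 fold changes were 1.93 ± 0.45 and 2.75 ± 0.45. Cd28, the constitutive co-stimulator of T cells, ranged from 0.543 to 1.70 CPM in C57BL/6 (median 1.25), 2.20 to 5.26 CPM in Winnie (median 2.96) and 2.38 to 5.70 CPM in Winnie-Prolapse (median 3.81). Its groups did not overlap with C57BL/6 either, and its log2 fold changes were 1.59 ± 0.28 and 1.81 ± 0.25.

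Of the PD-1 axis, the ligand PD-L1 was by far the most abundant transcript and the receptor among the rarest. Cd274 was at 6.45 to 11.9 CPM in C57BL/6 (median 9.82), 9.98 to 80.4 CPM in Winnie (median 40.3) and 35.0 to 149.7 CPM in Winnie-Prolapse (median 64.1). Winnie replicate 5, the lowest, lay within the C57BL/6 range, and the other 6 Winnie libraries and all Winnie-Prolapse libraries lay above it. The log2 fold changes of Cd274 were 2.23 ± 0.32 and 3.21 ± 0.28. Pdcd1lg2 ranged from 0.0725 to 0.964 CPM in C57BL/6 (median 0.211), 0.230 to 1.07 CPM in Winnie (median 0.501) and 0.635 to 3.24 CPM in Winnie-Prolapse (median 1.01). It overlapped with C57BL/6 in both comparisons, with log2 fold changes of 1.14 ± 0.47, not past either limit, and 2.42 ± 0.49. Pdcd1, the receptor, ranged from 0.0725 to 0.315 CPM in C57BL/6 (median 0.175), 0.135 to 0.605 CPM in Winnie (median 0.403) and 0.212 to 1.10 CPM in Winnie-Prolapse (median 0.687). It failed the count filter in both comparisons with C57BL/6. Without that filter its log2 fold changes were 1.09 ± 0.38 and 1.91 ± 0.38, and 6 of 7 Winnie-Prolapse libraries lay above all C57BL/6 libraries. In that unfiltered fit Pdcd1 was called in Winnie-Prolapse (adjusted p = 9.62e-04), as it was by DESeq2 and with all 3 groups in 1 fit, while Pdcd1lg2 (adjusted p = 0.00116) and Havcr2 (adjusted p = 0.00114) were no longer called, which left 8 of 10.

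The other inhibitory receptors differed in size of change. Tigit, a receptor of T and NK cells that binds the poliovirus receptor, ranged from 0 to 0.197 CPM in C57BL/6 (median 0.106), 0.164 to 1.76 CPM in Winnie (median 1.06) and 0.453 to 2.31 CPM in Winnie-Prolapse (median 1.27). Winnie replicate 5, with 5 counts, was again within the C57BL/6 range, and the Winnie-Prolapse libraries were all above it. The log2 fold change of Tigit was 3.64 ± 0.45 in Winnie-Prolapse. In Winnie it failed the count filter, and without the filter it was 3.24 ± 0.52. Lag3, a CD4-like receptor of MHC class II, ranged from 0.435 to 1.43 CPM in C57BL/6 (median 0.880), 1.21 to 3.14 CPM in Winnie (median 1.66) and 2.04 to 3.76 CPM in Winnie-Prolapse (median 2.51). Only the last did not overlap with C57BL/6, and the log2 fold changes were 1.21 ± 0.26 and 1.69 ± 0.23. Havcr2 ranged from 0.543 to 3.32 CPM in C57BL/6 (median 1.14), 0.886 to 3.99 CPM in Winnie (median 1.79) and 2.36 to 6.97 CPM in Winnie-Prolapse (median 2.96). It overlapped in both comparisons, and C57BL/6 replicate 5 at 3.32 CPM lay above 4 of 7 Winnie-Prolapse libraries, and its log2 fold changes were 0.79 ± 0.36, not past either limit, and 1.57 ± 0.32.

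Cd86, the ligand of CD28 and CTLA-4 on antigen-presenting cells, ranged from 1.01 to 2.66 CPM in C57BL/6 (median 1.96), 2.07 to 6.22 CPM in Winnie (median 2.97) and 4.27 to 7.64 CPM in Winnie-Prolapse (median 5.98). The Winnie libraries overlapped with C57BL/6 and the Winnie-Prolapse libraries did not. Its log2 fold changes were 0.96 ± 0.26 and 1.72 ± 0.20. In all, every Winnie library was above every C57BL/6 library for 2 of the 10 genes, Ctla4 and Cd28, where 0.49% of 17769 genes showed this. Every Winnie-Prolapse library was above every C57BL/6 library for 7 of the 10, where 6.53% of genes did, and the exceptions were Pdcd1, Pdcd1lg2 and Havcr2.

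**Figure D2:**
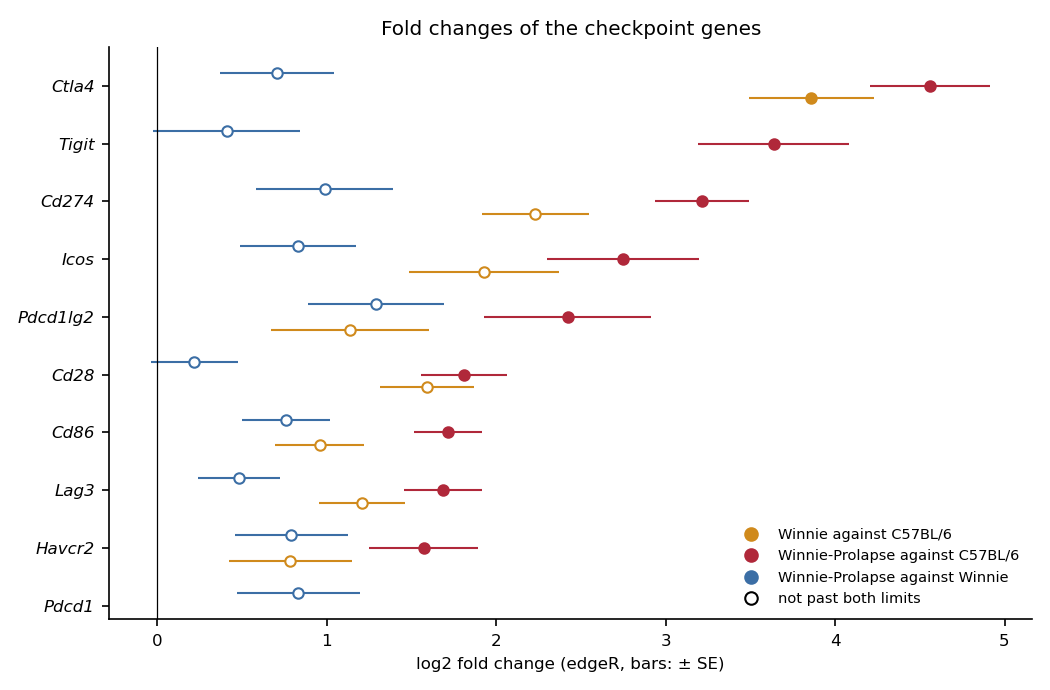
Log2 fold change (horizontal axis) of each checkpoint gene in 3 comparisons, with bars of ± 1 SE from the edgeR fit; filled circles passed both limits. Ctla4 shows the largest values, 3.86 and 4.56 against C57BL/6, and no gene is filled for Winnie-Prolapse against Winnie; missing points are genes that failed the count filter.

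The calls depended on single libraries in places. Without C57BL/6 replicate 5, the log2 fold changes in Winnie-Prolapse were 2.96 ± 0.44 for Pdcd1lg2 and 1.89 ± 0.27 for Havcr2. Without Winnie-Prolapse replicate 6, the library with milk protein transcripts, 7 of the 9 genes tested were called, and Pdcd1lg2 (2.48 ± 0.52) and Havcr2 (1.62 ± 0.34) were not. Without C57BL/6 replicate 7 the same pair was lost, at 2.29 ± 0.49 and 1.46 ± 0.31. In all, the call of Havcr2 was lost in 13 of the 15 fits that each left out 1 library and that of Pdcd1lg2 in 12. Without Winnie replicate 5, 4 genes were called in Winnie: Ctla4, Cd274, Cd28 and Tigit. Leaving out C57BL/6 replicate 1, 2 or 6 left 0 called genes in Winnie, where the log2 fold change of Ctla4 stayed at 3.57 or more.

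Winnie-Prolapse was also compared with Winnie colon directly. All 10 genes passed the filter and all 10 had positive log2 fold changes, from 0.22 ± 0.25 for Cd28 to 1.29 ± 0.40 for Pdcd1lg2. With edgeR 0 of the 10 were called at either limit, and 6 had an unadjusted p under 0.05, beside 4743 of all 17041 genes tested. DESeq2 and limma-voom also called 0 at the stricter limit, and at the looser one DESeq2 called 2, limma-voom 0 and edgeR with all 3 groups in 1 fit 1. Of all genes, 0.0% were called higher at the stricter limit and 4.27% at the looser one. Cd274 had a log2 fold change of 0.99 ± 0.41, Pdcd1 0.83 ± 0.36, Icos 0.83 ± 0.34 and Havcr2 0.79 ± 0.33. No gene had every Winnie-Prolapse library above every Winnie library, which 0.394% of genes did. Pdcd1 came closest, with 4 of 7.

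Markers of T cells, myeloid cells, neutrophils and NK and innate lymphoid cells and genes of the interferon gamma response were, like the checkpoint genes, called higher in Winnie-Prolapse than in C57BL/6, though not every gene of each list. In Winnie edgeR called 0 genes of these lists at the stricter limit. Their counts stand beside 9.84% of all genes called higher and 18.3% called in either direction in Winnie-Prolapse. In Winnie 7.42% of all genes were higher at the looser limit, and 6901 of 17289 had an unadjusted p under 0.05. Of 11 T cell identity genes, 7 were called higher in Winnie-Prolapse than in C57BL/6, and in Winnie 8 were higher at the looser limit and 8 had an unadjusted p under 0.05. They summed to 23.2 to 46.9 CPM (C57BL/6), 27.2 to 69.1 CPM (Winnie) and 40.7 to 89.6 CPM (Winnie-Prolapse). The 14 macrophage and dendritic cell genes summed to 55.5 to 110.4, 86.0 to 259.8 and 192 to 433 CPM in the same order, with 7 called higher in Winnie-Prolapse. In Winnie 6 were higher and 1 lower at the looser limit, and 9 had an unadjusted p under 0.05. The 15 genes of the interferon gamma axis summed to 1164 to 1652, 1372 to 2152 and 1630 to 2523 CPM, with 10 called higher in Winnie-Prolapse. Of the 14 tested in Winnie 8 were higher at the looser limit, and 10 had an unadjusted p under 0.05. Of 5 neutrophil genes tested 4 were called higher in Winnie-Prolapse, and the 7 listed summed to 4.17 to 358.8, 311.9 to 651.4 and 525.7 to 1761 CPM. Of the 3 tested in Winnie 2 were higher at the looser limit, and 2 had an unadjusted p under 0.05. Of 5 NK and innate lymphoid genes tested 3 were called higher in Winnie-Prolapse, and in Winnie 3 of 5 were higher at the looser limit and 4 had an unadjusted p under 0.05. Ly6g, the neutrophil gene with the highest mean level (381.6 CPM), was not called. It made up most of the neutrophil sum over all libraries, with S100a9 next at a mean of 48.0 CPM. By contrast, the 8 B cell genes showed 0 calls in either comparison with C57BL/6 by edgeR (0 at an unadjusted p under 0.05). All 8 smooth muscle genes were called lower in Winnie-Prolapse, from a sum of 6749 to 12200 CPM in C57BL/6 to 1330 to 3217 CPM, while in Winnie edgeR called 0 of them at the stricter limit, with 7 lower at the looser one and 8 at an unadjusted p under 0.05. Squamous epithelium genes summed to 8.10 to 10.98 CPM in C57BL/6, 5.24 to 56.1 CPM in Winnie and 5.90 to 3431 CPM in Winnie-Prolapse, where 5 of the 6 tested were called higher. The 7 endothelium and fibroblast genes summed to 649.6 to 853.3, 429.9 to 1324 and 550.3 to 1891 CPM in the same order, with 1 called higher in Winnie-Prolapse and 5 higher at the looser limit. Of 9 colon epithelium genes 1 was called lower in Winnie-Prolapse and 0 higher. No gene of these lists was at 0 in every library of a group. The part of these shifts in the values of the checkpoint genes was not tested, and the ratios that follow are a description.

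Set against the summed counts of Cd3d, Cd3e and Cd3g, the CD3 chains of the T cell receptor complex, some checkpoint genes were higher in colitis relative to T cell transcripts and others were not. The CD3 sum itself ranged from 1.56 to 6.67 CPM in the C57BL/6 libraries, from 4.36 to 12.1 CPM in those of Winnie and from 7.05 to 17.4 CPM with prolapse. This is a ratio of transcripts in tissue and not a level per cell, and 0.5 was added to both counts. The log2 ratio of Ctla4 was -5.04 to -3.05 in the C57BL/6 libraries (median -3.54), -1.89 to -0.93 in Winnie (median -1.37) and -1.94 to -0.80 in Winnie-Prolapse (median -0.995). The Ctla4 ratio thus lay above the C57BL/6 range in all 14 colitic libraries, though the C57BL/6 ratios rest on 1 to 9 Ctla4 counts per library. For Icos the median rose from -1.89 in C57BL/6 to -1.24 and -0.96, with 5 of 7 Winnie and 7 of 7 Winnie-Prolapse libraries above all C57BL/6 libraries. For Tigit the medians were -4.57, -2.77 and -3.19, with 5 of 7 and 6 of 7 libraries above. The C57BL/6 ratios of Tigit rest on 0 to 5 counts per library. The share of all genes that lie apart in this way per CD3 transcript is not given here, so nothing is read from these counts of libraries.

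Cd28 and Lag3 kept close to the CD3 chains. The median log2 ratio of Cd28 went from -1.08 (C57BL/6) to -1.04 (Winnie) and -1.37 (Winnie-Prolapse), and that of Lag3 was -1.60, -1.90 and -1.78. No colitic library lay above the C57BL/6 range for either gene, and this was also so for Pdcd1 and Cd86. Pdcd1 had medians of -3.96, -4.35 and -3.67, Havcr2 -0.99, -1.60 and -1.57, and Cd86 -0.36, -0.96 and -0.72. Over all 10 genes the median was higher in Winnie-Prolapse than in C57BL/6 for 6 and lower for Cd28, Lag3, Havcr2 and Cd86. With the sum of all 11 T cell identity genes as the reference, all 10 were higher. Thy1, which is also made outside the T cell lineage, has the highest mean level of that list, 21.4 CPM. Against the macrophage genes Cd68, Csf1r and Adgre1, Cd274 had median log2 ratios of -1.77, -0.77 and -0.08, and lay above all C57BL/6 libraries in 6 of 7 Winnie and 7 of 7 Winnie-Prolapse libraries. Pdcd1lg2 did so in 0 and 2 libraries, Cd86 in 1 and 2, and Havcr2 in 0 and 0.

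**Figure D3:**
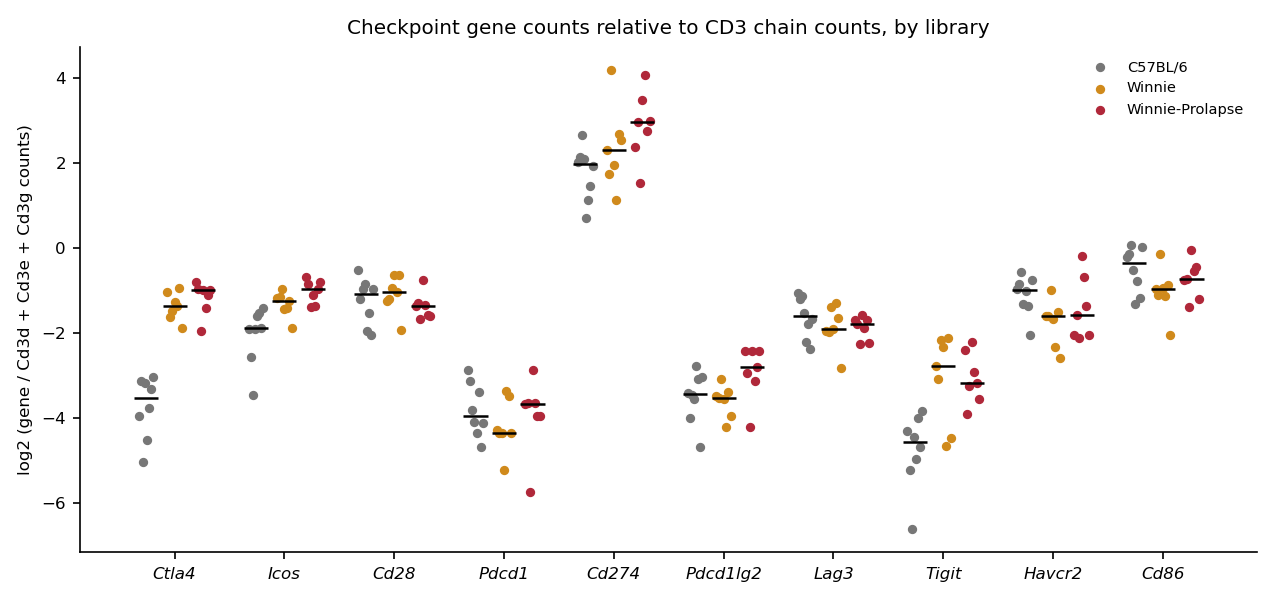
Log2 ratio of each checkpoint gene's counts to the summed counts of Cd3d, Cd3e and Cd3g (vertical axis) in every library; points are libraries coloured by group and lines are group medians. Ctla4 moves from a median of -3.54 in C57BL/6 to -0.995 in Winnie-Prolapse without overlap, while the medians of Cd28 lie between -1.04 and -1.37.

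Per kilobase of exon (RPKM), Cd274 was the most abundant checkpoint transcript in each group, at 2.59 ± 0.49 RPKM in C57BL/6 (SD, n = 8), 11.6 ± 6.61 in Winnie (n = 7) and 22.9 ± 12.5 in Winnie-Prolapse (n = 7). Its range did not touch that of the next gene in any group. By this measure Ctla4 was last of the 10 in C57BL/6, at 0.0904 ± 0.0382 RPKM, and second in both colitic groups, at 1.24 ± 0.665 and 2.02 ± 0.951 RPKM. In C57BL/6 Cd274 was followed by Cd86 (0.536 ± 0.147), Havcr2 (0.510 ± 0.305), Lag3 (0.428 ± 0.140), Icos (0.245 ± 0.187), Cd28 (0.194 ± 0.0703), Pdcd1lg2 (0.152 ± 0.148), Tigit (0.119 ± 0.0789) and Pdcd1 (0.102 ± 0.0523). In Winnie-Prolapse the order after Ctla4 was Cd86 (1.66 ± 0.388), Icos (1.54 ± 0.744), Havcr2 (1.45 ± 0.633), Tigit (1.41 ± 0.662), Lag3 (1.30 ± 0.332), Pdcd1lg2 (0.763 ± 0.475), Cd28 (0.644 ± 0.190) and Pdcd1 (0.370 ± 0.174). The Winnie order after Ctla4 was Tigit (1.06 ± 0.606), Cd86 (0.990 ± 0.461), Lag3 (0.939 ± 0.371), Icos (0.879 ± 0.479), Havcr2 (0.832 ± 0.455), Cd28 (0.553 ± 0.217), Pdcd1lg2 (0.311 ± 0.161) and Pdcd1 (0.203 ± 0.0914). Apart from Cd274, the ranges of neighbours in these orders overlapped in each group. Within single libraries, Lag3 was above Icos in 8 of 8 C57BL/6 libraries, Cd28 above Pdcd1lg2 in 7 of 7 Winnie libraries, and Lag3 above Pdcd1lg2 and Cd28 above Pdcd1 in 7 of 7 Winnie-Prolapse libraries. No other pair of neighbours below Cd274 kept its order in every library of the group. With the length of the longest annotated transcript in place of all exons, 22 of the 30 ranks held. Cd274 stayed first in each group and Ctla4 second in both colitic groups, but Pdcd1 and not Ctla4 was last in C57BL/6. The other ranks that changed were exchanges of Icos with Cd28 in C57BL/6, Tigit with Cd86 in Winnie and Pdcd1lg2 with Cd28 in Winnie-Prolapse.

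Ligands and competing receptors of the checkpoint genes were tested in the same fits. Their list was also drawn up with earlier results of these libraries known, so these tests are not independent of them. Of 52 listed partner genes 51 were found in the table, and 45 were tested for Winnie-Prolapse against C57BL/6, of which 12 were called higher and 1 lower, where 18.3% of all genes tested were called in either direction. Their median log2 fold change was 1.07, beside -0.01 over all genes. For Winnie against C57BL/6, edgeR called 0 of 44, while 25 had an unadjusted p under 0.05 (6901 of all 17289 genes did), DESeq2 called 8 and limma-voom 0. There 0.0925% of all genes tested were called. At the looser limit 14 partner genes were higher, beside 7.42% of all genes. Between Winnie-Prolapse and Winnie edgeR called 0 of 45, 15 had an unadjusted p under 0.05 (4743 of all 17041 genes did), DESeq2 called 3 and limma-voom 0.

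Of the B7 and CD28 family partners, 4 of 10 were called higher in Winnie-Prolapse than in C57BL/6. Cd80, which shares its receptors with Cd86, was at 0.299 ± 0.171 CPM in C57BL/6 (SD, n = 8), 0.572 ± 0.391 in Winnie and 2.23 ± 1.90 in Winnie-Prolapse (n = 7 each). Its log2 fold change in Winnie-Prolapse was 2.94 ± 0.46 (SE, edgeR adjusted p = 9.00e-05) and in Winnie 1.002 ± 0.44 (adjusted p = 0.103). Icosl, the ligand of ICOS, was at 28.8 ± 10.1 CPM in C57BL/6 and 24.8 ± 5.10 CPM in Winnie-Prolapse and did not pass the test in either comparison, with log2 values of 0.15 ± 0.22 in Winnie and -0.13 ± 0.23 in Winnie-Prolapse. Among the TIGIT and nectin partners, 1 of 6 tested was called. Cd226, the activating receptor that competes with TIGIT, was higher in Winnie-Prolapse by 1.78 ± 0.35 (adjusted p = 6.01e-04). Its ligands Pvr (0.44 ± 0.14, adjusted p = 0.0138) and Nectin2 (0.09 ± 0.18, adjusted p = 0.694) and the competing receptor Cd96 (1.49 ± 0.41, adjusted p = 0.00628) did not pass both limits.

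Of the LAG-3 and TIM-3 partners, 4 of 9 tested were called higher and 1 lower in Winnie-Prolapse. The MHC class II genes, whose product LAG-3 binds, rose most. H2-Ab1 went from 90.0 ± 40.9 CPM in C57BL/6 to 502 ± 327 in Winnie and 714 ± 155 in Winnie-Prolapse, with log2 fold changes of 2.56 ± 0.42 (adjusted p = 0.00194) and 3.09 ± 0.27 (adjusted p = 5.92e-07). H2-Aa and H2-Eb1 rose by 2.98 ± 0.31 and 2.48 ± 0.27 in Winnie-Prolapse. Lgals9, which encodes galectin-9, a ligand reported for TIM-3, rose by 1.87 ± 0.19 (adjusted p = 1.69e-06). Fgl1, a soluble ligand reported for LAG-3, was at 0.905 ± 0.280, 0.467 ± 0.246 and 0.292 ± 0.138 CPM, and was the partner gene called lower (-1.51 ± 0.29, adjusted p = 5.17e-04). Ceacam1, an epithelial adhesion molecule and proposed TIM-3 ligand, was at 3392 ± 2337, 3960 ± 985 and 3732 ± 754 CPM, with log2 values of 0.32 ± 0.31 and 0.22 ± 0.31 (adjusted p = 0.467 and 0.579).

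Of 6 tested TNF family co-stimulators, 2 were called higher in Winnie-Prolapse. Tnfrsf9, the 4-1BB receptor of activated T cells, had the largest change of the partner genes in Winnie-Prolapse against C57BL/6. It went from 0.305 ± 0.184 CPM in C57BL/6 to 1.56 ± 1.08 in Winnie and 5.46 ± 2.28 in Winnie-Prolapse, with log2 fold changes of 2.41 ± 0.45 (adjusted p = 0.00355) and 4.23 ± 0.38 (adjusted p = 7.35e-07). The other, Tnfrsf18, was named after its values were seen. Of 14 tested genes of inhibitory and co-stimulatory signalling, which relay these receptors inside the cell, 1 was called, Zap70, a kinase of the T cell receptor, also named after its values were seen. At the looser limit 5 partner genes were higher in Winnie-Prolapse than in Winnie: Cd80, Tnfrsf9, Cd40, Tnfsf9 and Tnfrsf18, from 0.71 ± 0.15 for Tnfrsf18 to 1.94 ± 0.49 for Cd80 (adjusted p = 0.0187 and 0.0285). Of these, Cd40 and Tnfsf9 were named after their values were seen. Of all genes tested, 4.27% were higher there at the looser limit and 0.0% were called in either direction at the stricter one.

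**Figure D4:**
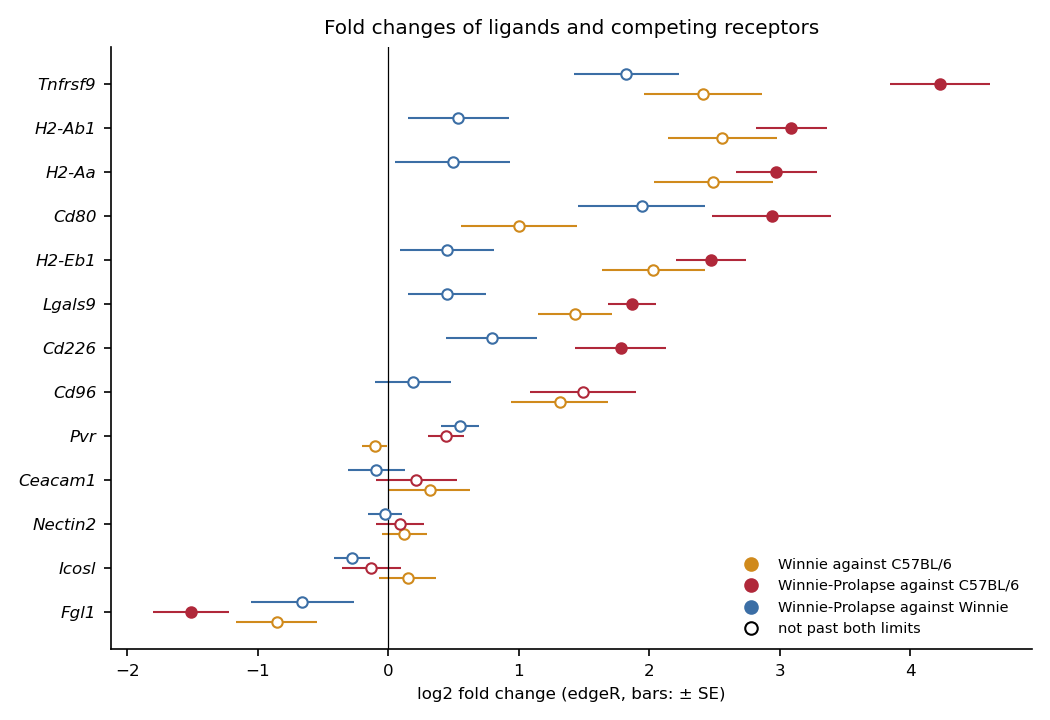
Log2 fold change (horizontal axis) of named ligands, competing receptors and Tnfrsf9 in the 3 comparisons, with bars of ± 1 SE from the edgeR fit; filled circles passed both limits. Tnfrsf9 (4.23) lies farthest right for Winnie-Prolapse against C57BL/6, followed by H2-Ab1 (3.09), H2-Aa (2.98) and Cd80 (2.94), Icosl and Nectin2 lie near 0, and Fgl1 (-1.51) is lower.

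Within groups the checkpoint genes varied together from library to library. After the group means of log2 CPM were removed, Pearson's r over the 22 libraries had a median of 0.643 across the 45 pairs, with a range of 0.233 to 0.863, and 34 pairs were above 0.5. These libraries share tissue composition and depth, and the values are a description with no test. Havcr2 with Cd86 (r = 0.863, Spearman's rho = 0.831) and Cd28 with Lag3 (r = 0.851, rho = 0.810) were the closest pairs. Leaving out the 2 libraries farthest from the median gave 0.853 and 0.789. Icos with Pdcd1lg2 (0.843) and Pdcd1lg2 with Cd86 (0.816) then lay above Cd28 with Lag3. For Cd274 the values ran from 0.233 with Lag3 and 0.238 with Icos to 0.541 with Cd86 and 0.594 with Havcr2.

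The genes most like each checkpoint gene were sought among 15362 genes with a mean of at least 1 CPM, with the checkpoint genes themselves left out of the ranking. Some checkpoint pairs were closer than genes named below: Lag3 had 0.851 with Cd28 and 0.824 with Cd86, and Ctla4 had 0.824 with Icos. For Cd274 they were Gbp7 (r = 0.953), Dtx3l (0.920) and Gbp2 (0.881). For Cd28 they were Cd4 (0.930), Dnase1l3 (0.877) and Igkj4 (0.869), and for Icos Cd3g (0.882) and Trac (0.880). Havcr2 was closest to Mpeg1 (0.940), Csf2rb (0.921) and Itgb2 (0.917), all of which are known from myeloid cells. Cd86 was closest to Tnfrsf9 (0.895), Msr1 (0.875) and Zmynd15 (0.873). Lag3 was closest to Stat4 (0.882), Cd4 (0.858) and Cd3e (0.815), and Pdcd1lg2 to Zap70 (0.894), Rasgrp1 (0.890) and Bcl2a1d (0.890). Ctla4 was closest to Klrd1 (0.853), Ppfia4 (0.819) and Tcrg-C2 (0.801). The rarer Tigit, led by Atg9a (0.811), Cd244 (0.804) and Lrrc25 (0.770), and Pdcd1, led by A230050P20Rik (0.766), F730043M19Rik (0.763) and Rab44 (0.728), had lower best values. Over the pairs named here Spearman's rho was 0.592 to 0.953 and r without the 2 farthest libraries was 0.524 to 0.932.

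Summed references were added after these values were seen. The CD3 sum had r of 0.884 with Icos, 0.802 with Pdcd1lg2, 0.746 with Ctla4 and 0.289 with Cd274. The sum of Cd68, Csf1r and Adgre1 had 0.793 with both Havcr2 and Cd86 but 0.257 with Ctla4. Genes of the interferon gamma axis had 0.863 with Cd274 (rho = 0.835, and 0.853 without the 2 farthest libraries) and 0.263 with Ctla4. The B cell sum ran from 0.113 with Cd274 to 0.692 with Pdcd1lg2, with 0.655 for Lag3 and 0.638 for Cd28. Pdcd1 had 0.544 with the B cell sum and 0.463 with the CD3 sum. Whether these values differ from each other was not tested.

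**Figure D5:**
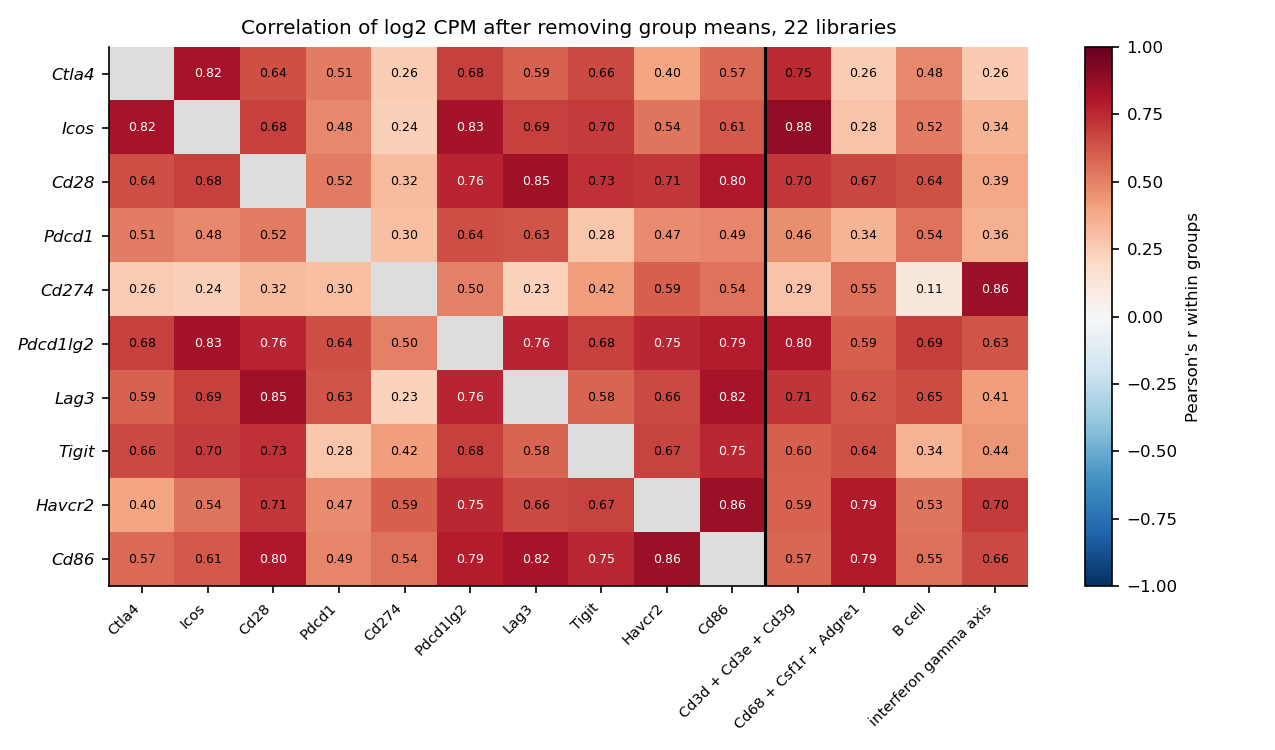
Pearson's r (colour and number) between checkpoint genes, and to the right of the line with summed marker genes, from log2 CPM with group means removed over 22 libraries. Cd274 ranges from 0.233 with Lag3 to 0.594 with Havcr2 among the checkpoint genes and is dark against the interferon gamma axis (0.863), whereas Icos has its highest value with the CD3 sum (0.884).

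Sex was not used to choose the genes, so it could be tested. With group as a covariate, 0 of the 10 were called between females and males by edgeR, where 13 of 18911 genes (0.0687%) were, 0 had an unadjusted p under 0.05, and DESeq2 also called 0. Log2 differences, female against male, ran from -0.20 ± 0.20 (Cd86) to 0.29 ± 0.39 (Pdcd1lg2). The test of whether the difference between Winnie and C57BL/6 depended on sex gave negative estimates for all 10 genes, that is, a smaller difference in females. None passed an adjusted p under 0.05 with edgeR, and 0.0% of all genes did for either colitic group. An unadjusted p under 0.05 was reached by 5 of the 10 in Winnie, beside 2476 of all 18911 genes, and by 1 of the 10 in Winnie-Prolapse, beside 945. With DESeq2 1 difference passed an adjusted p under 0.05, that of Icos in Winnie (adjusted p = 0.0452). T cell identity genes went the same way in Winnie by edgeR: 0 of 11 estimates were positive and 8 had an unadjusted p under 0.05. Their median was -1.50, beside -1.27 for the checkpoint genes and -0.03 over all genes. B cell genes had 0 of 8 positive estimates (median -1.03) and colon epithelium genes 6 of 9. The part of these markers in the checkpoint values was not tested.

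Some of the checkpoint values, named after they were seen, show the pattern, whose sign the T cell identity genes shared. For Icos the sex-by-group estimate in Winnie was -2.50 ± 0.72 (edgeR adjusted p = 0.233), with means of 4.35 ± 1.83 CPM in 3 Winnie males and 2.02 ± 0.253 in 4 Winnie females, and of 0.443 ± 0.275 and 1.24 ± 0.681 in 4 C57BL/6 males and 4 females. For Cd86 it was -1.20 ± 0.40 (adjusted p = 0.274). The Winnie males ranged from 3.93 to 6.22 CPM and the females from 2.07 to 2.97 CPM. For Havcr2 the estimate was -1.75 ± 0.62 (edgeR adjusted p = 0.285), with 2.20 to 3.99 CPM in Winnie males and 0.886 to 1.79 CPM in Winnie females. These ranges come from 3 males and 4 females, and the share of all genes that separate so is not given here. Without C57BL/6 replicate 5, a female, the estimates in Winnie were -2.08 ± 0.71 for Icos, -1.07 ± 0.42 for Cd86 and -1.20 ± 0.56 for Havcr2. In Winnie-Prolapse the estimates had both signs, from -1.57 ± 1.01 for Tigit to 1.21 ± 0.57 for Cd274, with adjusted p of at least 0.960.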

How the data were processed

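Poly(A) RNA of distal colon from 22 mice was made into stranded libraries. The authors aligned the reads to GRCm38 and deposited raw counts per gene (46078 genes), made with STAR and featureCounts per the labels, whose versions are not given in the sources used here. Mice were grouped by the labels. CPM is the count over the library's total times 1000000, and RPKM divides it by the union exon length from GENCODE M21. The main test was edgeR's quasi-likelihood test (edgeR 4.0.16, R 4.3.3) with TMM factors, filterByExpr and Benjamini-Hochberg adjustment over all genes tested, on the 2 groups compared or, for sex, all 3. A gene was called at an adjusted p under 0.001 and at least 1.5-fold. Its standard error is the log2 fold change over the square root of F. Fits were tested on simulated data.

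The checkpoint genes, partner genes and marker lists were chosen with earlier results of these data known. Named genes were all 10 checkpoint genes, 10 direct partners with the 5 called partners of largest change, up to 3 genes of highest mean CPM from other lists, and the 3 genes, other than checkpoint genes, of highest r to each checkpoint gene. Some items are not reported here. Genes outside this rule are said to be named after their values were seen. Totals of 24817527 to 36344372 counts put 3 counts at 0.0825 to 0.121 CPM. Alternatives were DESeq2 1.42.0, limma-voom (limma 3.58.1), no TMM factors, other count filters, limits and covariates, all groups in 1 fit, and leaving out each library. The bias-adjusted form of the edgeR fit was added after seeing the data. Age is not separable from prolapse, and the labels name no batch.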

Additional observations from a re-analysis of the deposited data

Results flagged for a closer look

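Of 30 sets of values, each 1 checkpoint gene in 1 group, 2 held a library whose distance from its nearest neighbour was large against the range of the group, by Dixon's 95% criterion. Chance gives about 1 in 20. Both were in C57BL/6 replicate 5. Pdcd1lg2 was at 0.964 CPM there and at 0.393 CPM in the next library, and the mean of the other C57BL/6 libraries was 0.202 ± 0.114 CPM (SD, n = 7). Havcr2 was at 3.32 CPM against 1.52 CPM in the next library, and the mean of the others was 1.11 ± 0.305 CPM (n = 7). The same library had the highest CD3 sum of its group, 6.67 CPM, and the highest B cell sum, 307.7 CPM. Their part in the values of Pdcd1lg2 and Havcr2 was not tested.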

How the results depend on the processing

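No paired analysis was possible because the labels give no replicate numbers that groups share. For Winnie against C57BL/6, where 1 checkpoint gene and 16 of all genes were called, the looser limit gave 6 checkpoint genes, 14 partner genes and 2757 of all genes, and DESeq2 gave 6, 8 and 1262. Limma-voom and a filter of at least 10 counts in every library each gave 0 checkpoint genes and 0 of all genes, no filter gave 2 and 68, and all 3 groups in 1 fit gave 4 checkpoint genes, 3 partner genes and 199 of all genes. Without TMM factors 8 of all genes were called, and the bias-adjusted edgeR fit called 30. For Winnie-Prolapse against C57BL/6, 5 checkpoint genes were called with at least 10 counts in every library, which left fewer to test. The looser limit gave 27 partner genes and 5981 of all genes there, and DESeq2 24 and 5047. Between Winnie-Prolapse and Winnie these gave 5 and 1191, and 3 and 681, and all 3 groups in 1 fit called 42 of all genes. With DESeq2 1 sex-by-group difference passed an adjusted p under 0.05. With all T cell identity genes as reference 10 of the 10 checkpoint genes were higher in Winnie-Prolapse. Leaving out 1 library gave 0 to 4 checkpoint genes, 0 to 5 partner genes and 0 to 677 of all genes called in Winnie (most without Winnie replicate 5), and 7 to 9, 11 to 18 and 2517 to 3657 in Winnie-Prolapse against C57BL/6 (18 without C57BL/6 replicate 5). Between Winnie-Prolapse and Winnie it gave 0 to 0, 0 to 0 and 0 to 1, and for both sex tests 0 to 0. The count of genes higher per CD3 transcript in Winnie-Prolapse than in C57BL/6 was 6 to 6, leaving out libraries of those 2 groups. For the median pairwise r only Winnie-Prolapse replicate 6 was left out, which gave 0.643. The cause of these shifts was not tested, apart from the filter. Of the fold changes of single checkpoint genes under all alternatives, 609 kept their direction and side of the limit, 32 lost a call, 14 gained one and 0 reversed. For partner genes the numbers were 664, 20, 10 and 8. The reversals were values near 0 without 1 library. Across these fits Nectin2 ran from -0.0102 to 0.185 against C57BL/6, changing sign without C57BL/6 replicate 2, and from -0.116 to 0.031 against Winnie, changing sign without Winnie replicates 6 or 7 or Winnie-Prolapse replicates 2 or 6. Against Winnie, Ceacam1 ran from -0.178 to 0.024, changing sign without Winnie replicate 6 or Winnie-Prolapse replicate 2, and Cd96 from -0.018 to 0.297, changing sign without Winnie-Prolapse replicate 7. Depth limits Ctla4, Pdcd1 and Tigit most, with at most 9 counts in any C57BL/6 library.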

Other observations

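Regulatory T cell genes and genes of T cell effector function and exhaustion were also measured beside the checkpoint receptors. Of 7 regulatory T cell genes tested, 4 were called higher in Winnie-Prolapse than in C57BL/6 and 1 in Winnie, beside 9.84% and 0.0868% of all genes tested. Tnfrsf8, which encodes CD30, a TNF receptor family member of activated lymphocytes, was at 1.07 ± 0.551 CPM in C57BL/6 (SD, n = 8), 22.9 ± 13.5 CPM in Winnie and 37.8 ± 10.98 CPM in Winnie-Prolapse (n = 7 each). Its log2 fold changes were 4.50 ± 0.46 (SE, edgeR adjusted p = 2.55e-04) and 5.24 ± 0.33 (adjusted p = 1.79e-08). The call of Tnfrsf8 in Winnie was lost with limma-voom and without C57BL/6 replicate 1, 2 or 6, where 0 of all genes were called. Without C57BL/6 replicate 3 or 4 it was lost as well, and the only gene called was a checkpoint gene. Ikzf2, which encodes Helios, differed by 0.71 ± 0.20 in Winnie-Prolapse (adjusted p = 0.00774), and Gpr83 by -1.23 ± 0.55 (adjusted p = 0.0724), so that neither passed both limits at the stricter setting.

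Of 12 effector and exhaustion genes tested, 8 were called higher in Winnie-Prolapse than in C57BL/6 and 1 in Winnie, beside the same shares of all genes tested, 9.84% and 0.0868%. Prdm1, which encodes the transcription factor Blimp-1 and is also made by plasma cells and epithelium, was called in both, with log2 fold changes of 2.04 ± 0.26 (edgeR adjusted p = 9.37e-04) and 2.80 ± 0.24 (adjusted p = 4.83e-07). Its call in Winnie was lost with limma-voom and without C57BL/6 replicate 1, 2 or 6, where 0 of all genes were called. It was also lost without C57BL/6 replicate 3 or 4, where the only gene called was a checkpoint gene. Entpd1, which encodes the ectonucleotidase CD39, was called in Winnie-Prolapse (1.29 ± 0.23, adjusted p = 2.80e-04) and not in Winnie (0.52 ± 0.19, adjusted p = 0.0588). Nr4a1, an early response gene of T cell receptor signalling and many other stimuli, was at 20.4 ± 16.3, 15.5 ± 6.13 and 28.9 ± 25.7 CPM in the order C57BL/6, Winnie and Winnie-Prolapse, and passed in neither comparison.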
